A study of Mus musculus with 12 samples.

Results

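The immunoproteasome genes Psmb8, Psmb9 and Psmb10 and the PA28 activator genes Psme1 and Psme2 were followed in mouse lung and lung tumours. They are 5 of the 78298 gene rows of the count table, taken by symbol, and all 5 passed the filter on low counts that left 22190 genes for testing. The members were chosen by their difference between HDM and VEH tumours, where all 5 were already known to be called lower. Their values in that comparison, and in the difference of differences that contains it, are therefore given as a description with no p.

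The 12 RNA-seq libraries fall into 4 groups of 3, which are normal lung beside tumours under VEH, normal lung under HDM, LLC tumours under VEH and LLC tumours under HDM. HDM stands for house dust mite, from the series title. VEH and LLC stand as the labels write them, without expansion, and no strain, age, sex, dose or schedule is given. Nothing in the labels says that the libraries of a group came from separate animals, though their names start with different prefixes. Chi-square per degree of freedom was 32.6 to 296 for library pairs within a group, so counts varied beyond random sampling of reads. The p-values measure this spread between libraries, and how much of it is technical was not tested.

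Library totals ran from 20608682 to 32765364 counts. The sum of 9 lung epithelium markers was 60482 to 115620 CPM (each library's counts scaled to a fixed common total) in normal libraries, 2759 to 25434 in VEH tumours and 40.7 to 3621 in HDM tumours. On the first principal component the tumour library closest to normal lung was tumour VEH replicate 2, and the most distant was tumour HDM replicate 3. All 12 carry the same batch label. The library names share 6 prefixes, each joining 1 normal and 1 tumour library. In 2 of the 6 the treatments disagree: 1 prefix joins normal VEH replicate 2 to tumour HDM replicate 2, and another joins tumour VEH replicate 3 to normal HDM replicate 3. The groups were kept as labelled, and results are also given without these 4 libraries.

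The proteasome is the protease that degrades ubiquitin-tagged proteins and produces most peptides shown on MHC class I. In its constitutive 20S core the proteolytic sites are carried by Psmb6 (beta1), Psmb7 (beta2) and Psmb5 (beta5). In cells of the immune system and in cells exposed to interferon gamma, newly built cores take up Psmb9 (beta1i, LMP2), Psmb10 (beta2i, MECL-1) and Psmb8 (beta5i, LMP7) instead. PA28 is a ring of PA28 alpha (Psme1) and PA28 beta (Psme2) that caps the core and is also induced by interferon gamma, while Psme3 encodes the nuclear homologue PA28 gamma.

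Psmb8 (ENSMUSG00000024338, GRCm39 chr17:34416690-34420428, plus strand) and Psmb9 (ENSMUSG00000096727, chr17:34400960-34406738, minus strand) lie in the MHC region beside the peptide transporter gene Tap1. Psmb10 (ENSMUSG00000031897) is at chr8:106662362-106665077 on the minus strand. Psme1 (ENSMUSG00000022216, chr14:55815190-55822034, plus strand) and Psme2 (ENSMUSG00000079197, chr14:55824895-55829173, minus strand) are neighbours. All 5 are protein-coding genes.

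Because the members are interferon-responsive genes, chosen for lower levels in HDM than in VEH tumours, their promoters were searched for a binding motif of interferon-regulated factors. The windows run from 250 bases before to 50 bases after each RefSeq start and came from a GRCm38.p6 table that holds all 5 members. The motif described here was ISRE, the IRF-type site made of 2 copies of GAAA with NN between them, read on both strands. Psme1 was the 1 member of the 5 that held an ISRE match, shown here within 30 bases of the plus strand of GRCm39 and the match in capitals. The Psme1 stretch spans chr14:55815950-55815979, with the ISRE match, on the opposite strand, at bases 10 to 19 after the start.
Psme1: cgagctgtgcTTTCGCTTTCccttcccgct
An ISRE match was present in 3.44% of all 32851 windows in the table, so this match is a description of the letters and not evidence of binding. The windows of Psmb8, Psmb9, Psmb10 and Psme2 held no ISRE match, nor did those of Psmb5, Psmb6, Psme3 and Tap1. Psmb9 and Tap1 are transcribed away from each other from RefSeq starts 225 bases apart, so their windows share 275 bases.

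All 5 members were highest in VEH tumours. Psmb8, Psmb9, Psmb10 and Psme1 were lowest in HDM tumours, where each of the 3 libraries lay below all other libraries. Psme2 also had its lowest mean in HDM tumours, but those libraries overlapped the HDM normal ones, and replicate 3 alone lay below every normal library. Levels below are CPM after TMM scaling and are given for replicates 1, 2 and 3 in that order.

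Psmb8, the inducible chymotrypsin-like subunit, measured 75.2, 75.8 and 82.3 CPM in VEH normal lung and 93.0, 87.7 and 67.3 CPM in HDM normal lung. In tumours it measured 100.2, 111 and 90.3 CPM under VEH and 27.5, 29.3 and 12.0 CPM under HDM. The HDM tumours stood apart at 23.0 ± 9.49 CPM (SD, n = 3) against 101 ± 10.5 in VEH tumours, a ratio of means of 4.39. Its means in VEH and HDM normal lung, 77.8 ± 3.97 and 82.7 ± 13.6 CPM, differed by less than their spread.

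Psmb9, the inducible caspase-site replacement, was likewise highest in VEH tumours and lowest in HDM tumours. Its levels were 48.1, 44.9 and 60.0 CPM in VEH normal lung and 54.8, 39.6 and 44.4 CPM in HDM normal lung. VEH tumours had 67.7, 59.8 and 55.2 CPM, of which replicates 2 and 3 fell inside the range of the normal libraries. HDM tumours had 19.2, 16.6 and 6.82 CPM, with the ratio of VEH to HDM tumour means at 4.29.

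Psmb10, the inducible trypsin-like subunit, measured 110.2, 69.6 and 87.9 CPM in VEH normal lung and 69.6, 75.5 and 85.5 CPM in HDM normal lung. It measured 141, 127 and 128 CPM in VEH tumours, above every normal library, and 42.4, 48.3 and 31.7 CPM in HDM tumours, below every normal library. The VEH tumour mean was 3.24 times the HDM tumour mean.

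Psme1, PA28 alpha, measured 147, 148 and 162 CPM in VEH normal lung and 129, 128 and 118 CPM in HDM normal lung, with no overlap between those groups. Tumours had 189, 239 and 184 CPM under VEH and 95.4, 106 and 86.5 CPM under HDM. Psme2, PA28 beta, measured 96.2, 91.0 and 96.7 CPM in VEH normal lung and 75.2, 91.4 and 71.0 CPM in HDM normal lung. It measured 175, 173 and 151 CPM in VEH tumours and 77.7, 82.9 and 66.4 CPM in HDM tumours. The ratio of VEH to HDM tumour means was 2.13 for Psme1 and 2.20 for Psme2, smaller than for the 3 catalytic genes.

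**Figure D1:**
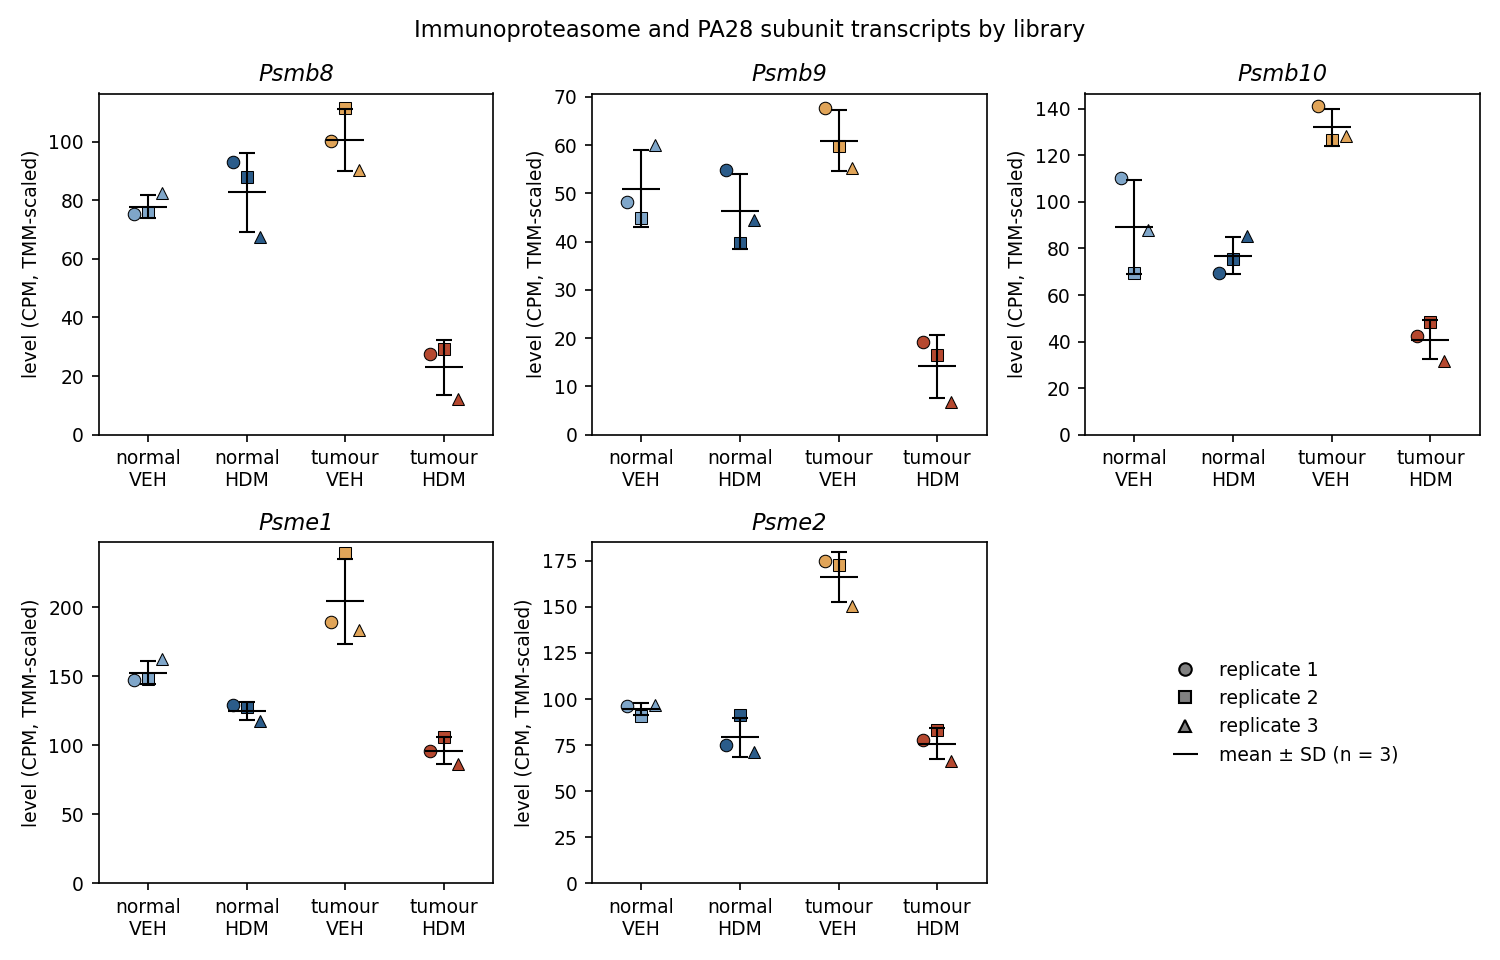
Level of each member in CPM after TMM scaling (y axis, from 0) in the 4 groups (x axis). Points are libraries, marked by replicate, with mean ± SD (n = 3). HDM tumours lie below all other libraries for the 3 catalytic genes and Psme1, while for Psme2 they span 66.4 to 82.9 CPM beside 71.0 to 91.4 in HDM normal lung.

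The order of levels between genes depended on which transcript length was used. Per kb of deposited gene length, the VEH tumour means were 94.2 CPM per kb for Psme2, 92.4 for Psme1, 77.5 for Psmb10, 29.8 for Psmb8 and 16.6 for Psmb9. Per kb of the GENCODE M39 canonical transcript, the same means were 172 for Psme2, 101 for Psmb10, 59.1 for Psmb8, 48.3 for Psme1 and 45.0 for Psmb9. Psme2 was first and Psmb9 last on either length, and Psme1 moved from above Psmb10 and Psmb8 to below both. The canonical transcript of Psme1, 4227 bases, is longer than its deposited length of 2209 bases. It therefore holds bases outside the deposited gene model, and the canonical value of Psme1 rests on a length that does not match its counts.

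Tumour against normal tissue was tested with VEH and HDM weighted equally, a contrast that is orthogonal to the one that picked the members. Psmb8 (log2 fold change -0.74 ± 0.19, SE; adjusted p 0.00662) and Psmb9 (-0.72 ± 0.22, adjusted p 0.0136) were lower in tumours in edgeR's quasi-likelihood test with Benjamini-Hochberg adjustment. Psme2 was higher (0.37 ± 0.10, adjusted p 0.00564). Psmb10 (-0.17 ± 0.14, adjusted p 0.281) and Psme1 (0.02 ± 0.10, adjusted p 0.858) did not pass. The member counts, 2 lower and 1 higher of 5, stand beside backgrounds of 34.8% of genes called lower and 28.1% called higher. The average joins opposite sides, since for Psmb8, Psmb10 and Psme1 every tumour library was above every normal one under VEH and below every one under HDM. Without the 4 libraries of conflicting prefixes the Psmb9 value was -0.71 with adjusted p 0.122, without tumour VEH replicate 3 it was -0.58 with adjusted p 0.0722, and blocking on the name prefix gave -0.77 with adjusted p 0.0529.

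Under VEH, Psme2 (0.81 ± 0.14, adjusted p 0.00157), Psmb10 (0.57 ± 0.19, adjusted p 0.0380) and Psme1 (0.42 ± 0.13, adjusted p 0.0306) were higher in tumours in the same edgeR test. Psmb8 (0.37 ± 0.27, adjusted p 0.288) and Psmb9 (0.26 ± 0.31, adjusted p 0.520) did not pass. The 3 of 5 called higher compare with 18.2% of all genes, and the 4 of 5 whose libraries did not overlap compare with 23.9%. These VEH tumour libraries also entered the contrast that picked the members. That choice favours higher values here, so these p-values are not independent support. Psme2 was still called without the 4 libraries of conflicting prefixes, when 1 of 5 members was called in all. Psme2 was the 1 member called without normal VEH replicate 2, normal VEH replicate 3 or tumour VEH replicate 2. Psmb10 also lost its call without normal HDM replicate 2 or tumour VEH replicate 1, and Psme1 without normal VEH replicate 1, with the smallest changes 0.42 for Psmb10 (adjusted p 0.106, without normal VEH replicate 2) and 0.29 for Psme1 (adjusted p 0.0896, without tumour VEH replicate 2). Psmb10 lost it as well with a block for library-name prefix (adjusted p 0.0629), with a replicate block (0.0559) and with DESeq2's size factors (0.0529). Psmb8 was called without tumour HDM replicate 3 (0.47, adjusted p 0.0326), a library outside this contrast that acts through the filter, the scaling and the shared spread.

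Under HDM the catalytic genes were lower in tumours. Psmb8 fell by 1.85 ± 0.28 on the log2 scale (adjusted p 0.000522), Psmb9 fell by 1.71 ± 0.32 (adjusted p 0.00148) and Psmb10 fell by 0.91 ± 0.19 (adjusted p 0.00298) in the edgeR test. The HDM normal mean was 3.60, 3.26 and 1.88 times the HDM tumour mean for these genes in turn. Psme1 fell by 0.38 ± 0.14 (adjusted p 0.0357) and Psme2 had -0.06 ± 0.13 (adjusted p 0.708). So 4 of 5 were called lower and did not overlap, beside 28.9% of genes called lower and 33.5% not overlapping in that direction. HDM tumour libraries also entered the contrast that picked the members. That choice favours lower values here, so these p-values are not independent support. Psmb8, Psmb9 and Psmb10 kept their calls without the 4 libraries of conflicting prefixes, when 3 of 5 members were called. Psme1 lost its call there (adjusted p 0.114) and without any 1 library of the HDM normal or HDM tumour groups, or without tumour VEH replicate 1 or 3. It lost it too with library size as the only scaling (-0.20, adjusted p 0.201) and with no filter (adjusted p 0.119). Its smallest change, -0.17 (adjusted p 0.401), was without tumour HDM replicate 3.

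In normal tissue, a comparison that shares no library with the one that picked the members, no member was called between HDM and VEH. The log2 fold changes were 0.09 ± 0.27 for Psmb8, -0.14 ± 0.31 for Psmb9, -0.22 ± 0.19 for Psmb10, -0.29 ± 0.13 for Psme1 and -0.26 ± 0.13 for Psme2. Psme1 was below VEH in 3 of 3 HDM libraries with no overlap (unadjusted p 0.0563, adjusted p 0.887 in edgeR's test), where 5.85% of all genes did not overlap in that direction. Normal VEH replicate 2 and normal HDM replicate 3 are among the libraries of conflicting prefixes. With their labels exchanged, the Psme1 levels of HDM and VEH would overlap. Without the 4 libraries of conflicting prefixes, edgeR's test called 0 genes in normal tissue, members included. The edgeR test called 0 of 22190 genes, or 0%, with 1230 at an unadjusted p under 0.05, and the DESeq2 Wald test called 43.

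In tumours, HDM against VEH gave -2.13 ± 0.28 for Psmb8, -2.10 ± 0.32 for Psmb9, -1.69 ± 0.20 for Psmb10, -1.09 ± 0.14 for Psme1 and -1.13 ± 0.14 for Psme2. This is the comparison that chose the members, so the 5 of 5 called lower are a matter of choice. The test called 21 of 22190 genes (0.0946%), of which 19 were lower (0.0856%), and 10.7% of all genes had HDM tumour libraries wholly below the VEH ones. The number of members called was 0 without the 4 libraries of conflicting prefixes and 0 when only the 6 tumour libraries were fitted. It was also 0 on leaving out any of 9 of the 12 libraries one at a time, 2 without normal VEH replicate 1, and 4 without normal VEH replicate 2 or without tumour HDM replicate 3. The sign was negative in each of these fits, from -2.34 to -1.80 for Psmb8 when 1 library was left out.

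The HDM to VEH difference in tumours minus that in normal tissue was -2.22 ± 0.39 for Psmb8, -1.96 ± 0.44 for Psmb9, -1.48 ± 0.27 for Psmb10, -0.80 ± 0.19 for Psme1 and -0.88 ± 0.19 for Psme2. As a description these keep the order of the tumour contrast they contain, with the catalytic genes ahead of PA28. Over all genes the edgeR interaction test called 0 (0%), members included, with 2084 at an unadjusted p under 0.05, and the DESeq2 Wald test called 222 genes.

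**Figure D2:**
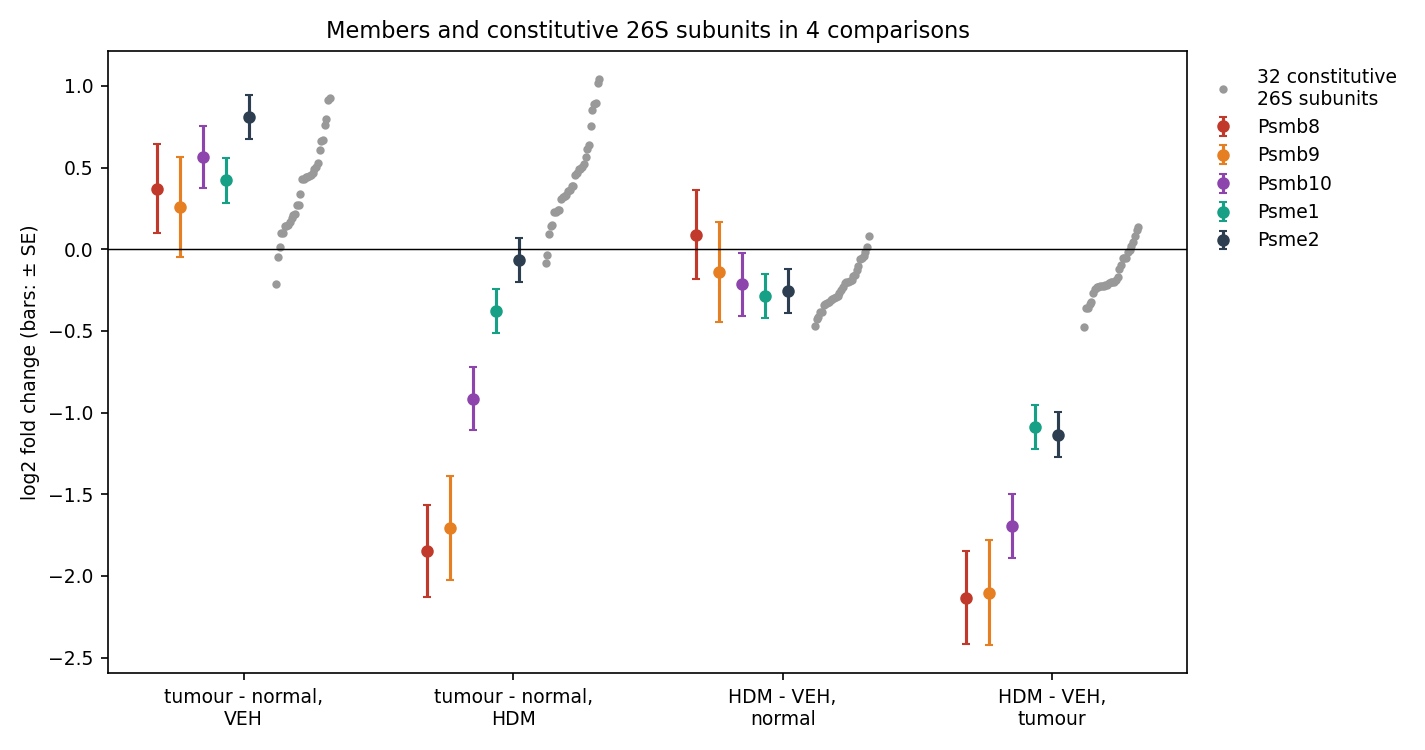
The log2 fold change (y axis) of the 5 members (coloured, bars ± SE) and of 32 constitutive 26S subunits (grey, ordered by value) in 4 comparisons (x axis). The members lie inside the grey range under VEH, and in the HDM to VEH contrast in tumours they lie between -2.13 and -1.09 while the grey points span -0.48 to 0.14.

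Constitutive subunits of the proteasome gave other counts. Of the 32 genes of the 20S alpha and beta rings and the 19S cap, 22 were called higher and 0 lower in tumours averaged over treatment, beside 28.1% of all genes called higher and 34.8% lower. Their median log2 fold change was 0.40, beside -0.17 for the members and -0.09 for all genes. Under HDM, 17 of the 32 were called higher and 0 lower (23.0% of all genes were called higher), with a median of 0.39 beside -0.91 for the members. Under VEH the medians were alike, 0.43 and 0.42, with 15 of the 32 called higher beside 18.2% of all genes. Between HDM and VEH tumours 0 of the 32 were called, beside 0.0946% of all genes, so the count of 0 does not set them apart. Their median was -0.20. In normal tissue the median was -0.24 for the constitutive genes, 30 of 32 being below 0, and -0.22 for the members.

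Each inducible catalytic gene can be set beside the gene it replaces. Psmb5, the partner of Psmb8, measured 75.7, 92.5 and 66.7 CPM in VEH tumours and 51.6, 63.1 and 71.5 CPM in HDM tumours, so those groups overlapped. Psmb6, the partner of Psmb9, likewise overlapped, with 110.3, 159 and 95.0 CPM under VEH and 83.0, 106 and 118 CPM under HDM. Psmb7, the partner of Psmb10, had 98.0, 106 and 137 CPM in HDM tumours and was called higher in tumours averaged over treatment (0.45, adjusted p 0.00722 in edgeR's test). None of the 3 was called between HDM and VEH tumours, where 0.0946% of all genes were. Their log2 fold changes were -0.33, -0.24 and -0.22.

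The inducible share is the inducible gene's counts per kb of deposited length in percent of the pair's sum, and does not depend on library scaling. Psmb8 made up 25.6 ± 1.18% of the Psmb8 and Psmb5 pair in VEH tumours and 9.23 ± 4.34% in HDM tumours (SD, n = 3), the latter from libraries between 4.28 and 12.4%. Normal lung stood at 23.2 ± 1.5% under VEH and 29.4 ± 3.57% under HDM. Psmb9 made up 21.0 ± 4.21% of its pair with Psmb6 in VEH tumours and 6.94 ± 3.87% in HDM tumours. Psmb10 made up 66.6 ± 0.22% of its pair with Psmb7 in VEH tumours and 42.0 ± 8.92% in HDM tumours. For all 3 pairs every HDM tumour library was below every other library, and tumour HDM replicate 3 was the lowest.

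Averaged over treatment, no share differed between the 6 tumours and the 6 normal libraries beyond the test's threshold. The differences were -8.89 percentage points for Psmb8 (p 0.0779), -5.56 for Psmb9 (p 0.182) and -10.4 for Psmb10 (p 0.130), by two-sided exact permutation tests. Adjusted over the 3 shares, each p was 0.182. The regroupings ignored treatment, so the gap between VEH and HDM tumours is part of the spread that these tests measure. They therefore cannot say whether tumours differ from normal lung within either treatment. Without tumour HDM replicate 3 the Psmb9 difference was -3.34 and the Psmb10 difference -5.85 points, and per kb of canonical transcript the Psmb8 difference was -15.3 points, none of them past the threshold. In normal lung the Psmb8 share was 6.12 points higher under HDM than under VEH, with no overlap, and its exact permutation p of 0.1 is the smallest that 3 against 3 libraries allow. Normal VEH replicate 2 (24.6%) and normal HDM replicate 3 (25.3%) are of conflicting prefixes, and exchanging their labels would make the groups overlap. With canonical transcript lengths the Psmb8 share was 56.4% in VEH tumours and 27.0% in HDM tumours, the Psmb9 share 28.4 and 9.97%, and the Psmb10 share 46.8 and 24.5%, so the height of a share rests on the length while the order of the tumour groups did not. For Psmb5 the canonical transcript, 1701 bases, is longer than the deposited length of 899 bases, so the canonical Psmb8 share uses a length that does not match the Psmb5 counts.

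**Figure D3:**
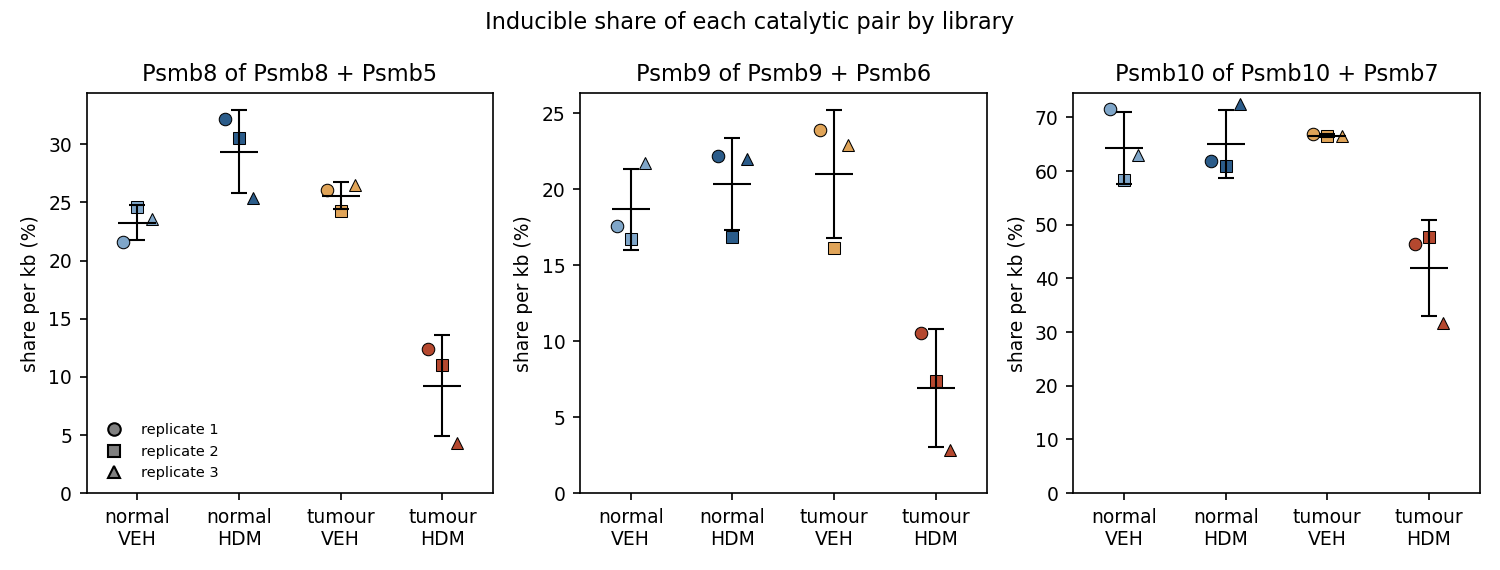
Share of the inducible gene in each catalytic pair, in percent of counts per kb of deposited gene length (y axis, from 0), in the 4 groups (x axis), with libraries as points and mean ± SD (n = 3). HDM tumours have the lowest shares in all 3 pairs, for Psmb8 between 4.28 and 12.4%.

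The PA28 genes kept a different proportion in tumours. Psme2 counts per Psme1 count were 0.581 to 0.716 in the 6 normal libraries and 0.721 to 0.926 in the 6 tumour libraries, with no overlap and with HDM tumours (0.788 ± 0.02) near VEH tumours (0.822 ± 0.10). This ratio was looked at after the values had been seen and has no test, and the closest tumour value is that of VEH replicate 2. Among the catalytic genes, Psmb10 counts per Psmb8 count ran from 1.14 to 1.65 in 5 tumours and reached 2.63 in tumour HDM replicate 3. Psmb9 counts per Psmb8 count overlapped, at 0.452 to 0.729 in normal lung and 0.537 to 0.697 in tumours.

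Member levels varied together in tumours. Pearson's r of log2 CPM between pairs of members was 0.93 to 0.99 over the 6 tumours, which hold the VEH to HDM gap. The members were chosen by that gap, so high values follow from the choice. Over the 6 normal libraries it ranged from -0.46 (Psmb8 and Psmb10) to 0.82 (Psme1 and Psme2). These are descriptions over libraries that share a scaling.

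Among other activators and assembly factors, Psme3 was called higher in tumours under VEH (0.66, adjusted p 0.00284) and HDM (0.89, adjusted p 0.000361, edgeR), with 132 ± 17.1 CPM in VEH tumours and 142 ± 3.43 CPM in HDM tumours (SD, n = 3). Psme4, which encodes the activator PA200, was called higher averaged over treatment (0.39, adjusted p 0.00631). Pomp, the assembly chaperone that immunoproteasome maturation depends on, measured 126, 164 and 130.2 CPM in VEH tumours and 74.0, 94.1 and 103 CPM in HDM tumours without being called. Of the 8 genes of this list, 3 were called higher under VEH and 5 under HDM, and 0 lower in either. The shares of all genes called higher were 18.2% under VEH and 23.0% under HDM.

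Class I antigen processing genes carry peptides onward from the proteasome. Of 12, 7 were called higher in VEH tumours than in VEH normal lung (median 0.64) and 0 lower, beside 18.2% of all genes called higher. Under HDM 3 were called lower and 1 higher (median -0.72), beside 28.9% and 23.0% of all genes. Tap1, the transporter subunit, measured 162, 95.3 and 143 CPM in VEH tumours and 41.2, 42.9 and 18.1 CPM in HDM tumours. Tap2, its partner, was the 1 gene of the list called lower in HDM than in VEH tumours (-1.15). The list median there was -1.23, and 0.0856% of all genes were called lower. Nlrc5, the transactivator of class I genes, was called higher under VEH (2.04, adjusted p 0.00568, edgeR), with tumour VEH replicate 2 at 12.2 CPM beside 38.5 and 36.7 in the other two. H2-K1, a class I heavy chain, was called lower under HDM (-2.08, adjusted p 0.00231, edgeR).

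Interferon gamma signalling genes gave 5 of 11 called higher in tumours under VEH (median 0.74), and under HDM 2 lower and 1 higher (median -0.38), where the same shares of all genes apply. Irf1, an interferon-induced transcription factor, measured 135, 155 and 153 CPM in VEH tumours and 67.5, 54.3 and 34.5 CPM in HDM tumours. It was not called between the tumour groups, where 0 of the 11 genes were, beside 0.0946% of all genes. The median of the 11 there was -1.16. Of 6 genes of the interferon-induced ubiquitin-like pathway, 3 were called higher under VEH and 2 lower under HDM. Between HDM and VEH tumours their median was -2.10, and 1 of the 6, Ube2l6, was called lower (-2.05, adjusted p 0.0274, edgeR). Of all genes, 0.0856% were called lower there. Under HDM the lower counts of the 3 lists are near or below the 28.9% of all genes called lower. These lists were drawn up with earlier results of the data known.

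The 8 genes whose log2 CPM over the 12 libraries was most like the mean of the members, among 12290 ranked, were Idnk (Pearson's r 0.953), H2-T22 (0.947), Tap2 (0.938), AW112010 (0.937), H2-Ab1 (0.937), Irgm2 (0.935), Ifi47 (0.935) and Tgtp2 (0.932). H2-Ab1, an MHC class II chain, averaged 845 CPM in VEH tumours and 116 CPM in HDM tumours. Irgm2, Ifi47 and Tgtp2 are interferon-inducible GTPase genes, and Ifi47 averaged 74.1 CPM in VEH tumours and 13.2 CPM in HDM tumours. The ranking follows the libraries' shared gap between tumour groups.

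The sum of 10 T and NK cell markers, like each member, was highest in VEH tumours and on average lowest in HDM tumours. It was 49.9 to 83.2 CPM in VEH tumours, 3.40 to 19.9 in HDM tumours and 19.4 to 40.5 in normal lung. Tumour HDM replicate 2 lay above normal VEH replicate 3. In normal lung the sum was 27.9 to 40.5 CPM under HDM and 19.4 to 29.4 under VEH. The Psmb8 mean had that order too, while the means of Psmb9, Psmb10, Psme1 and Psme2 were lower under HDM. None of the 10 marker genes was called between HDM and VEH tumours (median -2.28), and none was at 0 counts in any library. Of all genes, 0.0946% were called there, so a count of 0 says little about any marker list. All of the 10 but Ncr1 were lower in HDM tumours without overlap, beside 10.7% of all genes. Tumour HDM replicate 3 had the lowest sum, as it had the lowest level of each of the 5 members. As a sum, macrophage and monocyte markers overlapped between the tumour groups, at 2452 to 4374 CPM under VEH and 2364 to 4280 under HDM. Within this list Mrc1 was higher in HDM tumours without overlap (log2 fold change 2.09). C1qa (-0.69) and C1qb (-0.51) were lower without overlap, and no gene of the list was called. Neutrophil markers, 5 genes, went up in HDM tumours with a median of 1.41, but their sums overlapped and 0 were called. Cxcr2 (1.55) was the neutrophil gene without overlap. The share of all genes higher in HDM tumours without overlap, as Mrc1 and Cxcr2 were, is not given here. The sum of 6 dendritic cell markers also overlapped between the tumour groups, at 42.4 to 51.6 CPM under VEH and 36.0 to 46.4 under HDM. The median log2 fold change of this list was -1.32. Zbtb46, Xcr1, Ccr7 and Siglech were lower in HDM tumours without overlap, beside the same 10.7% of all genes, and without being called. Flt3 (0.21) and Clec9a (0.63) went the other way, with overlap and also not called. B cell markers were at 10.2 to 17.0 CPM in VEH and 3.37 to 12.9 CPM in HDM tumours, with pan-leukocyte markers at 408 to 736 and 281 to 449 CPM. The sum of 6 endothelium markers also separated the tumour groups, at 310 to 521 CPM under VEH and 87.5 to 286 under HDM. It was 1509 to 3136 CPM in normal lung. Pecam1, Cldn5, Kdr and Tek were lower in HDM tumours without overlap, Cdh5 and Vwf overlapped, and none was called (median -1.20). The part of these cells in the members' levels was not tested, and in bulk tissue fewer cells of a type and less RNA per cell cannot be told apart.

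**Figure D4:**
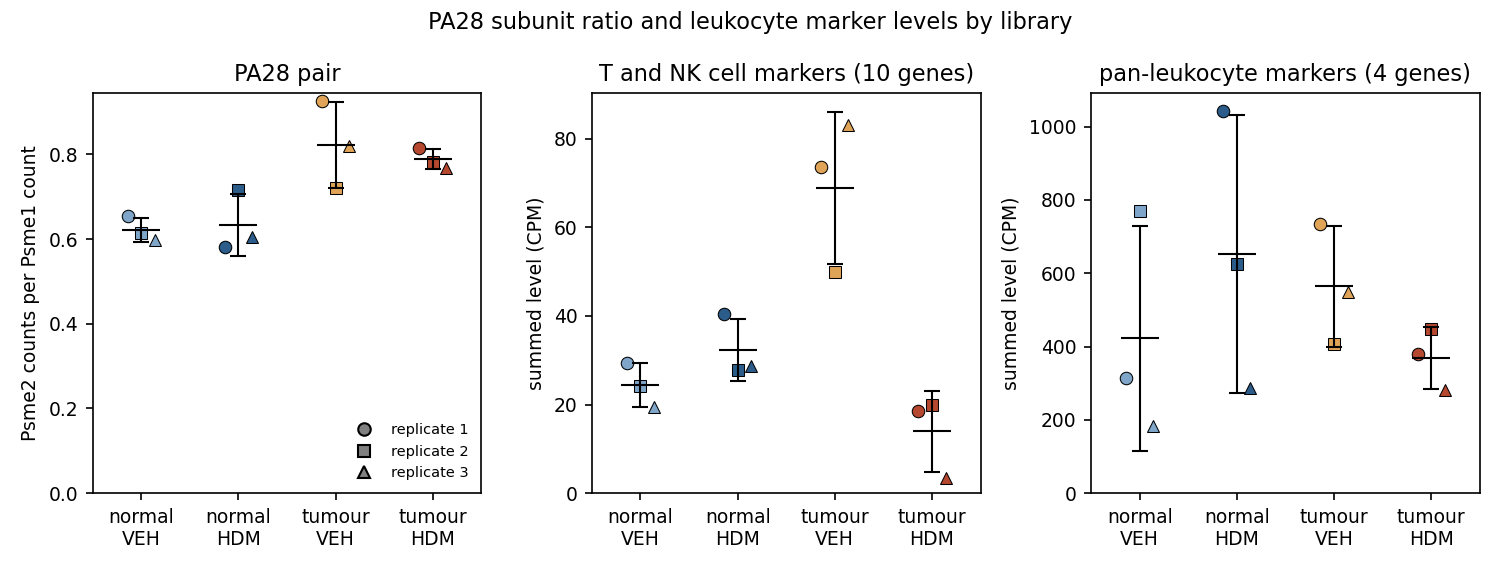
Psme2 counts per Psme1 count (left) and the summed CPM of the T and NK cell markers (middle) and pan-leukocyte markers (right) on the y axes, from 0, in the 4 groups (x axes), with libraries as points and mean ± SD (n = 3). The PA28 ratio is 0.721 or more in every tumour, while the T and NK sum separates VEH tumours (49.9 to 83.2 CPM) from HDM tumours (3.40 to 19.9 CPM). The endothelium marker sum, which is not drawn, also separates them.

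Some members share exon sequence with genes on the opposite strand, and whether the counting used strand is not given in the sources used here. In GENCODE M39, Psme1 shares 39.6% of its exon bases with Emc9, Psme2 30.8% with Rnf31, Psmb9 19.6% with Tap1 and Psmb8 14.6% with the long noncoding gene Gm20496. The deposited lengths differ from the M39 exon lengths, at 2209 against 5539 bases for Psme1, 1764 against 2374 for Psme2 and 3421 against 6025 for Psmb7. They are closer for Psmb9 (3660 against 3800) and Psmb8 (3381 against 3414). How much of the counted exons is shared is therefore not known. Over the 12 libraries Emc9 had 4818 counts to 45016 for Psme1, and Rnf31 8662 to 32255 for Psme2. Tap1 had 20776 to 13194 for Psmb9, and Gm20496 12112 to 21855 for Psmb8. Between HDM and VEH tumours Gm20496 changed by -1.57 and Tap1 by -1.97, close to their partners, while Emc9 changed by -0.68 and Rnf31 by -0.34. Psmb7, in the denominator of the Psmb10 share, shares 46.8% of its M39 exon bases with Nek6, which had 31736 counts to 33804 for Psmb7, so the same doubt touches that share. On its own strand Psme2 shares 13.8% of its 75-base words with the copy Psme2b, which had 2770 counts and was higher under VEH in tumours (0.93, adjusted p 0.00612, edgeR), so reads may be divided between them.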

How the data were processed

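The authors deposited a table of raw gene counts for 12 mouse lung libraries with a gene length. Per the labels' protocols the libraries were stranded and paired-end, and the protocol does not settle which of poly(A) selection and removal of ribosomal RNA was used. Per the submitters' processing notes, STAR, Trim Galore, featureCounts and Subread were used with build mm39. Their versions, the annotation and the treatment of strand and of multiply mapped reads are not given in the sources used here.

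Of 78298 gene IDs, 78168 matched GENCODE M39. Counts were filtered with filterByExpr (minimum count 10), scaled by TMM and fitted in edgeR 4.0.16 (R 4.3.3) with 1 coefficient for each of the 4 groups. Quasi-likelihood tests were adjusted by Benjamini-Hochberg over 22190 genes and called at adjusted p under 0.05. The procedure was tested on simulated data. Log2 CPM used a prior count of 2. Inducible shares were compared by exact permutation. Alternatives changed the scaling, filter, test (DESeq2 1.42.0), libraries and blocks. Shares with canonical transcript lengths were added after seeing the data.

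The members and gene lists were chosen with earlier results of these data known. Named genes are the members, genes of the lists, genes overlapping a member or near-identical to one, and the 8 most like the members in log2 CPM among genes with an average log2 CPM of at least 3. A level of 3 counts is at most 0.138 CPM in any library, so the members are far above the counting floor and library spread limits their precision. A second promoter motif was searched and is not reported here.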

Additional observations from a re-analysis of the deposited data

Results flagged for a closer look

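Psmb8, Psmb10 and Psme1 were flagged because every tumour library lay above every normal library under VEH and below every one under HDM. Of all genes, 23.9% had tumour libraries wholly above the normal ones under VEH, and 33.5% wholly below under HDM. The share of all genes with both was not counted, so how unusual the pattern is cannot be judged. The tumour-to-normal log2 fold change under HDM minus that under VEH was -2.22 for Psmb8, -1.48 for Psmb10 and -0.80 for Psme1. The pattern was picked out by the side on which the libraries fell, and no p is given for these genes, since the tumour contrast that chose them is part of the difference. Over all genes the edgeR interaction test called 0, these included.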

How the results depend on the processing

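Between HDM and VEH tumours the number of genes called, 21 as reported, was 8 with library size as the only scaling, 52 with no filter, 53 when each library had to hold 10 or more counts, 1311 with the DESeq2 Wald test, 0 with only the groups compared, 0 with a block for library-name prefix, 0 without the 4 libraries of conflicting prefixes and 66 with the treatment labels of 2 normal libraries exchanged. Leaving out 1 library gave 0 to 24. Members called there, 5 as reported, were 0 with only the groups compared, 0 with the prefix block and 0 without those 4 libraries, and 0 to 4 on leaving out 1 library. Replicate numbers did not pair the libraries, as 5 of 12 correlated best with a library of their own number. With a replicate block, 1 gene and 0 members were called between the tumour groups.

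In normal tissue DESeq2 called 43 genes and the exchanged labels gave 576, against 0. For the interaction, where member counts are a description because it contains the contrast that chose them, against 0 genes and 0 members, DESeq2 called 222 genes and 5 members, the exchanged labels 186 genes and 3 members, and leaving out 1 library gave 0 to 6 genes and 0 to 1 member. For tumour against normal under VEH, 8624 genes were called as reported, 5603 without the 4 libraries and 5733 to 9070 on leaving out 1 library. Members called, 3 as reported, were 1 under that stricter filter, 1 with only the groups compared and 1 without the 4 libraries, and 1 to 4 on leaving out 1 library.

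No called member value changed sign under any alternative run. Under HDM Psmb8, Psmb9 and Psmb10, and under VEH Psme2, were called in each. Both comparisons share tumour libraries with the contrast that picked the members, so these kept calls are not independent support. Scaling by library size alone moved the median log2 fold change of all genes from -0.08 to 0.10 under HDM and from -0.11 to 0.03 under VEH. Among values not called, Psmb10 and Psme1 averaged over treatment, Psme2 under HDM, and Psmb8, Psmb9 and Psmb10 in normal tissue changed sign in some. The cause of the lost calls was not tested. Depth does not limit the members.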
